A study of Arabidopsis thaliana with 6 samples.

Results

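The plastid-encoded genes are the loci carried by the chloroplast genome itself, identified here as the 133 rows of the gene count tables, out of 33602, whose locus number begins with ATCG. The authors' deposited table names 95 of them, as 74 protein-coding genes, 17 tRNA genes and 4 rRNA genes, and the other 38 rows carry at most 2 counts each over all libraries. RNA was sequenced from whole Arabidopsis thaliana seedlings (root, hypocotyl and cotyledon) of the Columbia ecotype, in 3 wild-type (WT) libraries and 3 libraries of athb1-1, a mutant of the homeodomain-leucine zipper gene ATHB1. Both genotypes were stratified for 3 days, grew in short days of 8 h light and 16 h dark at 120 µmol/m2/s, were 4 days old by the labels, which also give 72 h after stratification, and were harvested 1 h before the night ended. The labels call the libraries biological triplicates and name no single seedlings, and the genotype is carried by every cell of the seedling.

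The chloroplast genome keeps a small set of genes from its cyanobacterial ancestor. They encode core subunits of the photosystems, the cytochrome b6f complex, the ATP synthase, an NAD(P)H dehydrogenase-like (NDH) complex and the large subunit of Rubisco, together with part of the machinery that expresses them. Nuclear-encoded polymerases of phage type read the genes of the plastid's own RNA polymerase first, and that bacterial-type enzyme, guided by nuclear-encoded sigma factors, then reads most photosynthesis genes. Neighbouring genes are read as long joint transcripts that are cut, spliced and edited afterwards.

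ATHB1 transcripts, counted over the exon bins of a locus that merges ATHB1 with an overlapping gene, stood at 405 ± 40.5 CPM (counts scaled to library size; SD, n = 3) in WT and at 8.57 ± 0.504 in athb1-1 (edgeR, log2 fold change −5.56, adjusted p = 7.36e-11). Gene counts totalled 11036314 to 13153615 per library. WT replicate 2 stood apart from the other libraries: 7 seed storage protein and oleosin genes (CRA1, CRU3, OLEO1 and SESA1 to SESA4) summed to 42.8 CPM there and to 0.781 to 5.02 CPM in the other 5 libraries. Root markers (PIN2, SCR, COBL9, CASP1) and green tissue markers (RBCS1A, LHCB1.3, LHCA1, RCA) were present in all 6 libraries, summing to 114 to 138 CPM and to 43580 to 58534 CPM. Replicates of each genotype differed by more than counting noise (chi-square over its degrees of freedom, 4.28 to 12.6).

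Plastid-encoded genes took a small share of the counts, and that share varied more among WT libraries than between the genotypes. In WT it was 0.280%, 0.321% and 0.163% in replicates 1 to 3, from 30906, 37121 and 19469 counts. In athb1-1 it was 0.196%, 0.242% and 0.218%, from 25765, 31033 and 28064 counts. All athb1-1 values lay within the WT range, so the groups overlapped fully (0.255 ± 0.0824% against 0.218 ± 0.0229%, SD, n = 3). The 95% Wilson intervals of the libraries did not overlap one another, the widest being 0.318 to 0.325% in WT replicate 2. These intervals cover counting error only. Mitochondrion-encoded genes were also highest in WT replicate 2, at 0.0806% of counts, and lowest in WT replicate 3, at 0.0459%. Whether the plastid and mitochondrial shares move for the same reason was not tested. In whole seedlings, fewer chloroplasts or green cells and less RNA per chloroplast cannot be told apart.

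**Figure D1:**
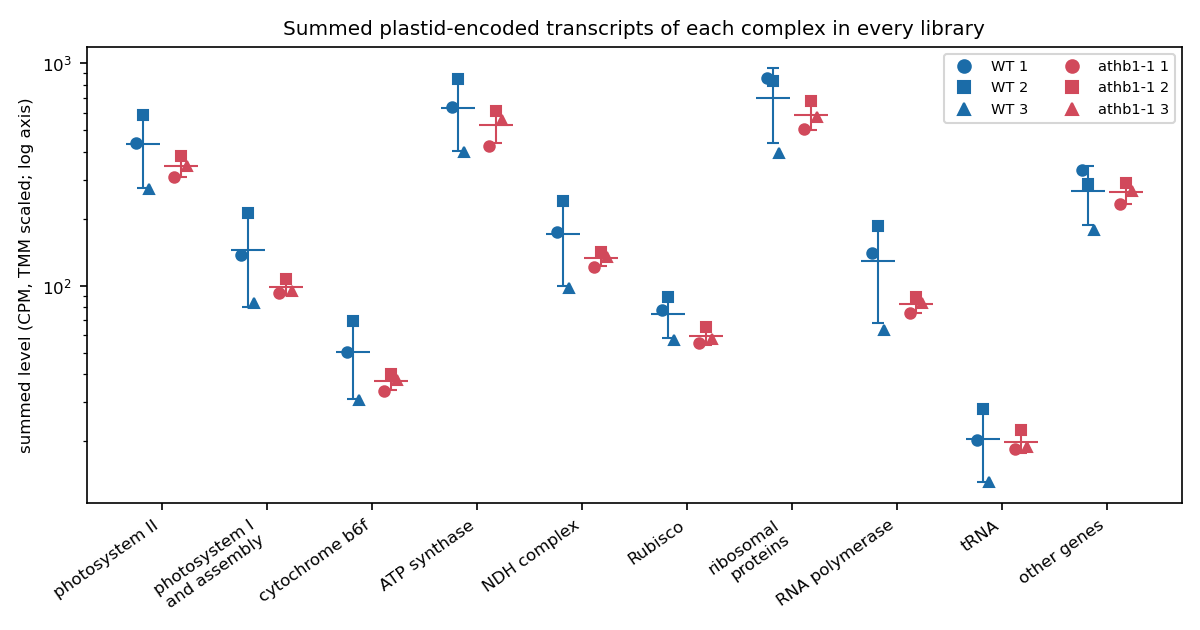
Summed plastid-encoded transcripts of each complex (CPM scaled by TMM factors, log axis) in every library; symbols mark replicates 1 to 3, horizontal bars the genotype mean and whiskers its SD (n = 3). In all complexes but Rubisco the 3 athb1-1 libraries lie between the lowest and the highest WT library.

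No plastid-encoded gene passed the test between the genotypes, while the estimates leaned to lower values in athb1-1. Of the 133 rows, 80 passed the filter on low counts and 0 of them were called at an adjusted p under 0.05, where 0.0537% of all 18626 genes tested were called (edgeR quasi-likelihood test, Benjamini-Hochberg). At an unadjusted p under 0.05, 8 of the 80 were lower in athb1-1, against 2.34% of all genes, and 0 were higher, against 2.9%. DESeq2 also called 0 of 84, against 0.11% of all genes, with 16 lower at an unadjusted p under 0.05, against 1.44%. The log2 fold change (athb1-1 over WT) was negative for 71 of the 80, with a median of −0.36. Over all genes tested 48.3% were negative and the median was 0.01. The groups failed to overlap for a single member, psaI, or 1.25% of those tested, against 11.3% of all genes. All 3 athb1-1 libraries lay within the WT range for 55 of the 80 (68.8%), against 31% of all genes.

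**Figure D2:**
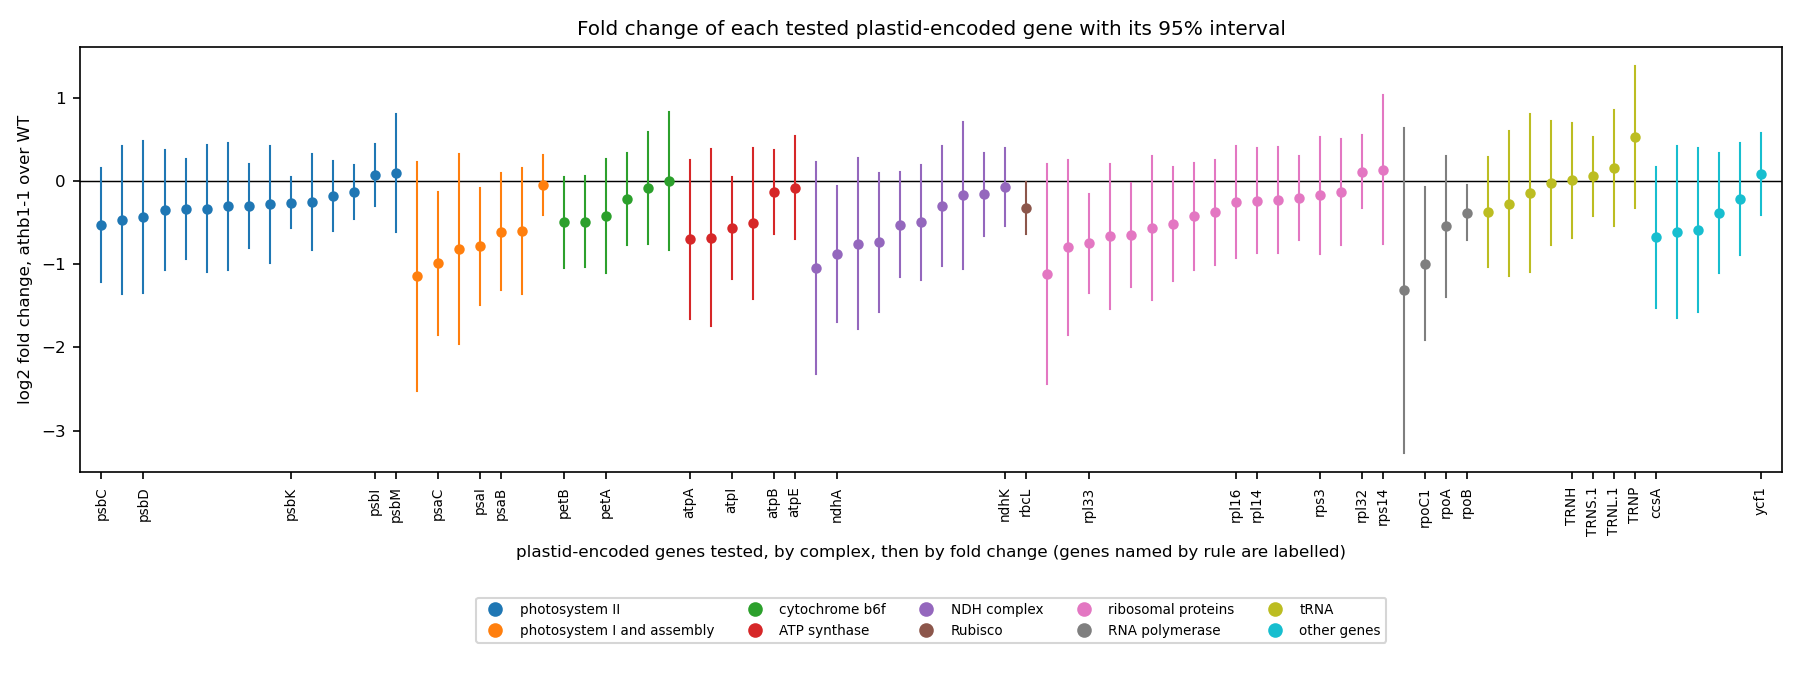
Log2 fold change (athb1-1 over WT, y axis) of the 80 tested plastid-encoded genes grouped and coloured by complex and ordered by fold change within each (x axis; genes named by rule are labelled), with vertical lines for the 95% interval of the quasi-likelihood fit. Points below 0 number 71, and the widest interval is that of rpoC2 (−3.26 to 0.64).

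Photosystem II splits water and passes electrons to plastoquinone, and the plastid encodes its reaction centre, its inner antenna and several small membrane subunits. Of its 15 genes, all tested, 13 were negative, with a median log2 fold change of −0.30, and 0 had an unadjusted p under 0.05. Summed over the 15 genes, the level was 440, 584 and 271 CPM in WT and 307, 381 and 346 CPM in athb1-1, and all athb1-1 libraries fell within the WT range. The gene with the highest mean level was psbC, an inner antenna protein that binds chlorophyll, at 132, 176 and 70.5 CPM in WT and 78.3, 93.1 and 89.9 CPM in athb1-1 (fold change on the log2 scale −0.53, SE 0.29, adjusted p = 0.947). WT replicate 2 was the highest library for it and WT replicate 3 the lowest. The neighbouring psbD, the D2 protein of the reaction centre, followed the same order at 94.3, 134 and 44.8 CPM in WT and 58.4, 77.1 and 65.9 CPM in athb1-1 (−0.44, SE 0.38). The reaction centre protein D1, encoded by psbA, gave 68.1, 79.8 and 50.5 CPM in WT and 54.1, 66.1 and 60.3 CPM in athb1-1 (−0.14, SE 0.15).

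The smallest p in photosystem II belonged to psbK, a small subunit, at 33.8, 39.4 and 26.3 CPM in WT and 24.8, 28.9 and 29.2 CPM in athb1-1 (fold change on the log2 scale −0.26, SE 0.14, adjusted p = 0.947). Its partner in the same transcription unit, psbI, was among the 9 plastid-encoded genes with a positive estimate, at 14.7, 22.2 and 13.6 CPM in WT and 16.1, 17.6 and 19.3 CPM in athb1-1 (0.07, 95% interval −0.30 to 0.44). The small subunit gene psbM was the other positive member of the complex, at 17.2, 35.1 and 17.6 CPM in WT and 18.7, 29.7 and 25.9 CPM in athb1-1 (0.09, interval −0.62 to 0.80). In both genes the athb1-1 libraries lay within the WT range. Their coding sequences, of 111 and 105 bases, are shown as examples of how short such genes are. Start and stop codons are in capitals. Positions are those of the RefSeq chloroplast genome of TAIR10.1 (psbI, Pltd:7583-7693, plus strand, and psbM, Pltd:28707-28811, minus strand).
psbI: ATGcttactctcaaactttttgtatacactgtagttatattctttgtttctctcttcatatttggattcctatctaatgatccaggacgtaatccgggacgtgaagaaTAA
psbM: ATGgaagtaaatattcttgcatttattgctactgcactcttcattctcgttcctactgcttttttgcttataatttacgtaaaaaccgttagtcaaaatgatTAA

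Photosystem I, which reduces ferredoxin, had the most negative median among the complexes. Its 5 subunit genes and the assembly factor genes ycf3 and ycf4 were all negative (7 of 7), with a median log2 fold change of −0.79, and 2 had an unadjusted p under 0.05. Their summed level was 138, 212 and 83.5 CPM in WT and 92.7, 107 and 95.1 CPM in athb1-1, a ratio of means of 0.681, with every athb1-1 library inside the WT range. The smallest p belonged to psaC, the subunit that carries the terminal iron-sulfur clusters. It gave 2.69, 5.46 and 1.64 CPM in WT and 1.67, 1.72 and 1.47 CPM in athb1-1 (−0.99, SE 0.39, adjusted p = 0.939). The WT value of replicate 2 was the highest and the athb1-1 libraries lay about the WT minimum. The small subunit gene psaI gave 2.32, 4.73 and 2.05 CPM in WT and 1.96, 1.48 and 1.78 CPM in athb1-1 (−0.79, SE 0.32, adjusted p = 0.939). It was the member whose groups did not overlap, and it rests on 19 to 52 counts per library.

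The photosystem I gene with the highest CPM, not scaled to length, was psaB, a reaction centre core protein. It gave 53.2, 85.1 and 32.8 CPM in WT and 37.0, 38.4 and 36.4 CPM in athb1-1 (fold change on the log2 scale −0.61, SE 0.30, adjusted p = 0.947). The athb1-1 libraries spanned 1.06-fold and the WT libraries 2.59-fold. The assembly factor gene ycf3 was further from 0, at −1.15 (SE 0.59), with 4.00, 10.1 and 2.13 CPM in WT and 1.45, 3.51 and 2.32 CPM in athb1-1. The sequences of psaI and psaC are given to set beside the short genes above: psaI (Pltd:59247-59360, plus strand) is nearly as short as psbI, and its estimate has the opposite sign. psaC lies at Pltd:117318-117563, minus strand, and capitals again mark start and stop codons.
psaI: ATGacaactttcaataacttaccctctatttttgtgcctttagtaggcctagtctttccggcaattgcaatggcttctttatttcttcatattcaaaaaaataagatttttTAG
psaC: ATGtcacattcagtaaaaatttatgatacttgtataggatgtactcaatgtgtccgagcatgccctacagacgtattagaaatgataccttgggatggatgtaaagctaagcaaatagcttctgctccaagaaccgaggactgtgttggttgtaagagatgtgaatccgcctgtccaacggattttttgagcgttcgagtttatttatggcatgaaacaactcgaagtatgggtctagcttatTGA

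The cytochrome b6f complex carries electrons between the photosystems. All 6 of its plastid genes were negative, from −0.50 to −0.01, with a median of −0.32, and 0 had an unadjusted p under 0.05. Cytochrome f, encoded by petA, had the highest level, at 22.4, 33.3 and 13.1 CPM in WT and 16.3, 17.0 and 17.8 CPM in athb1-1 (−0.42, SE 0.29). Cytochrome b6, encoded by petB, had the smallest p, at 13.1, 15.2 and 7.53 CPM in WT and 6.89, 10.1 and 8.20 CPM in athb1-1 (−0.50, SE 0.24, adjusted p = 0.947). Only athb1-1 replicate 1 lay below the WT range.

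The ATP synthase genes included the plastid gene with the highest CPM and lie in a pair of transcription units whose estimates differed in size. All 6 genes were negative, with a median of −0.54 and a summed level of 638, 853 and 401 CPM in WT and 426, 607 and 555 CPM in athb1-1. In the first unit, atpB and atpE (the beta and epsilon subunits of the catalytic head) stood at −0.13 (SE 0.22) and −0.08 (SE 0.26). The beta subunit gene atpB, the most abundant of all plastid-encoded genes in counts, gave 342, 401 and 224 CPM in WT and 230, 337 and 315 CPM in athb1-1. Its partner atpE gave 135, 175 and 85.4 CPM in WT and 96.9, 149 and 128 CPM in athb1-1. Both genes kept all athb1-1 libraries within the WT range.

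In the second unit, which runs from rps2 to atpA, the 4 ATP synthase genes stood between −0.70 and −0.51. The alpha subunit gene atpA gave 90.3, 160 and 51.8 CPM in WT and 55.8, 65.3 and 64.3 CPM in athb1-1 (−0.70, SE 0.39, adjusted p = 0.947), again within the WT range. The membrane subunit gene atpI had the smallest p of the complex, at 26.9, 36.8 and 16.3 CPM in WT and 15.3, 19.7 and 18.6 CPM in athb1-1 (−0.57, SE 0.27, adjusted p = 0.947).

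The NDH complex carries electrons back to plastoquinone around photosystem I. All 10 of its genes tested here, which leave out ndhB, were negative, with a median of −0.51. Their sum was 174, 239 and 98.3 CPM in WT and 122, 142 and 134 CPM in athb1-1. Its most abundant member was ndhK, at 51.5, 63.8 and 33.1 CPM in WT and 42.7, 50.9 and 47.0 CPM in athb1-1 (−0.07, SE 0.21). The smallest p was that of the membrane subunit gene ndhA, with 21.5, 34.6 and 11.8 CPM in WT and 11.9, 13.5 and 11.3 CPM in athb1-1 (−0.88, SE 0.35, adjusted p = 0.939). The 3 genes of the ndhC to ndhJ unit stood at −0.17 to −0.07, and the 6 NDH genes of the ndhH to ndhD unit at −1.05 to −0.50.

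The large subunit of Rubisco, the carbon-fixing enzyme, is encoded by rbcL. Its level was 78.0, 89.2 and 57.1 CPM in WT and 55.7, 65.2 and 57.7 CPM in athb1-1. The log2 fold change was −0.33 (SE 0.14, 95% interval −0.64 to −0.01, unadjusted p = 0.0429, adjusted p = 0.939), and athb1-1 replicate 1 lay just below the lowest WT library.

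Ribosomal protein genes build the plastid's own bacterial-type ribosome. Of 19 rows, 17 were tested and 15 were negative, with a median of −0.38. The most abundant was rpl16, at 187, 156 and 80.002 CPM in WT and 99.99, 137 and 117 CPM in athb1-1 (−0.25, SE 0.29). It belongs to a unit of 9 genes from rps19 to rpoA that held 23.4 to 29.4% of all plastid counts in the WT libraries and 24.7 to 25.8% in the athb1-1 libraries. In the same unit rps3 gave 146, 131 and 61.2 CPM in WT and 87.3, 117 and 94.6 CPM in athb1-1 (−0.17, SE 0.30). Also there, rpl14 gave 104, 98.7 and 48.7 CPM in WT and 60.8, 80.5 and 70.6 CPM in athb1-1 (−0.24, SE 0.27). For these 3 genes WT replicate 1 was the highest library, and the athb1-1 libraries lay within the WT range.

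Among all plastid-encoded genes rpl33, a protein of the large ribosomal subunit, had the smallest p, at 6.505, 10.5 and 4.67 CPM in WT and 3.99, 4.996 and 3.79 CPM in athb1-1. Its log2 fold change was −0.75 (SE 0.27, unadjusted p = 0.0176, adjusted p = 0.939), and athb1-1 replicate 2 lay above WT replicate 3, so the groups overlapped. The estimate was −0.39 without WT replicate 2 and −0.996 without WT replicate 3. Positive estimates in the group were those of rpl32 and rps14. For rpl32 the level was 40.7, 44.3 and 29.6 CPM in WT and 30.8, 50.2 and 42.5 CPM in athb1-1 (0.11, interval −0.33 to 0.55). For rps14 it was 26.2, 30.9 and 11.2 CPM in WT and 17.5, 32.0 and 25.1 CPM in athb1-1 (0.13, interval −0.76 to 1.02). The coding sequences of rpl32 (Pltd:113449-113607, plus strand) and rpl33 (Pltd:67488-67688, plus strand) are both short, while the estimates of these small ribosomal genes differ in sign. Capitals mark start and stop codons.
rpl32: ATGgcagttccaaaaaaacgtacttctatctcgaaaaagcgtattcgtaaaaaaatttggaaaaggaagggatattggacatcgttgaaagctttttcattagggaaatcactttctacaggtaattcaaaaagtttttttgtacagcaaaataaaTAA
rpl33: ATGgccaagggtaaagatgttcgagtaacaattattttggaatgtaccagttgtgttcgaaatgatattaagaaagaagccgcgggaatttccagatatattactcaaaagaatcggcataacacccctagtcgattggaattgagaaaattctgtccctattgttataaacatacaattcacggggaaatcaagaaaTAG

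The 4 core subunits of the plastid RNA polymerase had the lowest ratio of summed means, 0.638. The sums were 141, 185 and 63.1 CPM in WT and 75.4, 89.2 and 83.8 CPM in athb1-1, all athb1-1 values lying within the WT range. The alpha subunit gene rpoA, which ends the ribosomal unit, gave 99.6, 120 and 41.6 CPM in WT and 54.3, 64.2 and 59.6 CPM in athb1-1 (−0.55, SE 0.35, adjusted p = 0.951). The other subunits share the unit rpoB to rpoC2. For rpoB the level was 14.3, 17.3 and 12.1 CPM in WT and 11.5, 9.52 and 12.4 CPM in athb1-1 (−0.38, SE 0.15, unadjusted p = 0.0271, adjusted p = 0.939). It had the narrowest WT range of all tested members, 1.43-fold.

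The next gene, rpoC1, gave 9.57, 16.3 and 4.995 CPM in WT and 4.79, 6.01 and 4.56 CPM in athb1-1 (−0.995, SE 0.40, adjusted p = 0.939). The last, rpoC2, gave 17.0, 32.1 and 4.42 CPM in WT and 4.79, 9.45 and 7.19 CPM in athb1-1 (−1.31, SE 0.75, adjusted p = 0.947). It had both the most negative estimate and the widest WT range, 7.26-fold, and all its athb1-1 libraries lay within that range.

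Genes outside the complexes included ycf1, a large gene whose product is assigned to the chloroplast import machinery. In CPM not scaled to length, ycf1 came next after atpB. It gave 278, 191 and 144 CPM in WT and 189, 241 and 217 CPM in athb1-1 (0.08, SE 0.22), and WT replicate 1 was its highest library. RefSeq places ycf1 at more than 1 position, partly in the inverted repeat, so the count depends on how the authors' counting treated such reads. The gene with the smallest p in the group, ccsA, which acts in cytochrome maturation, gave 1.58, 2.55 and 0.819 CPM in WT and 0.871, 1.01 and 1.16 CPM in athb1-1 (−0.68, SE 0.39, adjusted p = 0.947). Grouped by polymerase as textbooks assign them, 6 genes read largely by the nuclear-encoded enzyme (rpoB, rpoC1, rpoC2, accD, clpP and ycf1) had a median of −0.50, and 27 photosystem, cytochrome b6f and Rubisco genes read by the plastid-encoded enzyme had a median of −0.33. Of these, 5 of 6 and 25 of 27 were negative. The ratio of athb1-1 to WT means of the summed level was 0.944 for the 6 genes and 0.775 for the 27. The order of both sets thus reversed with the measure, and ycf1 had the highest level of the 6 genes.

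Stable RNAs were barely counted. The 4 rRNA rows had at most 0.650 CPM in any library, led by the 23S row RRN23S.1, and none was tested. All 4 fall within the ranges of locus numbers described below, where the counts were not taken as levels of the genes. The sources used here do not say how mRNA was selected. Of the 17 tRNA rows 8 were tested, with 4 negative and 4 positive. TRNP had the largest positive estimate of all members, at 1.02, 1.46 and 0.819 CPM in WT and 0.871, 1.48 and 2.40 CPM in athb1-1 (0.52, interval −0.33 to 1.37, adjusted p = 0.959). TRNL.1 stood at 0.16, TRNS.1 at 0.05 and TRNH at 0.0045, and the groups overlapped for all 4.

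Several members could not be measured in these tables. The chloroplast genome of TAIR10.1 spans 154478 bases and holds an exact inverted repeat of 26264 bases, at 84171 to 110434 and 128215 to 154478. RefSeq lists ndhB, rpl2, rpl23, rps7 and ycf2, among others, at a position in each copy. The locus numbers ATCG00830 to ATCG01000 and ATCG01140 to ATCG01310 hold 19 and 18 rows, of which 15 and 14 are 0 in all libraries, and the largest totals are 20 and 10 counts. How the counting treated reads that match both copies is not known here, so such values were not taken as levels of these genes. Over all members 32 rows were 0 in every library, 11 had 1 to 9 counts in total and 90 had 10 or more.

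Within WT, most plastid-encoded genes followed the same order of libraries. WT replicate 2 was the highest of its genotype for 69 of the 80 tested members (86.2%), against 39.6% of all genes, and WT replicate 3 the lowest for 76 (95%), against 31.5%. The WT range exceeded 2-fold for 60 members (75%), against 6.68% of all genes, and the athb1-1 range exceeded it for 4 (5%), against 3.02%. The median SD of log2(CPM + 0.5) was 0.63 in WT and 0.18 in athb1-1 for the members, and 0.17 and 0.12 for all genes tested. Among the athb1-1 libraries, replicate 2 was the highest for 58 members and replicate 1 the lowest for 55. The seed markers were also highest in WT replicate 2, and their part in these differences was not tested.

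**Figure D3:**
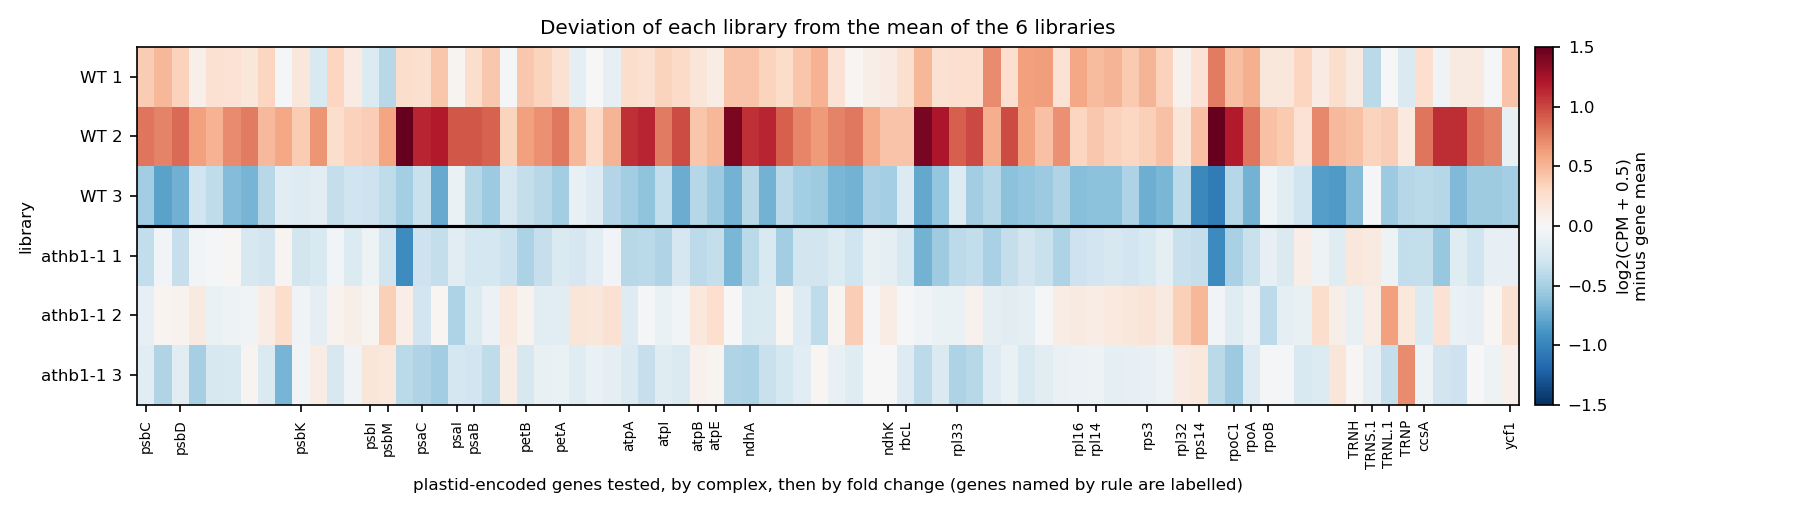
Heat map of log2(CPM + 0.5) minus the mean of the 6 libraries for each tested plastid-encoded gene (columns, by complex and then by fold change, with genes named by rule labelled) in each library (rows; the black line parts the genotypes). WT replicate 2 is above the mean in nearly every column and WT replicate 3 below it, while the athb1-1 rows stay nearer to 0.

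The transcription units differed in how far the WT libraries lay apart. From WT replicate 3 to WT replicate 2 the unit rps2 to atpA differed by 1.62 on the log2 scale, rpoB to rpoC2 by 1.61 and ndhH to ndhD by 1.51. The difference was 0.63 for psbK to psbI, 0.84 for petL to rps18 and 0.88 for psbE to psbJ. Within a unit the genes could also part: in rpoB to rpoC2 it was 0.51 for rpoB, 1.70 for rpoC1 and 2.86 for rpoC2. The unit rps19 to rpoA departed from the general order, since 7 of its 9 genes were highest in WT replicate 1 and its sum was 846, 801 and 372 CPM in WT replicates 1 to 3. The ratio of athb1-1 to WT means was 0.548 for rpoB to rpoC2, 0.615 for ndhH to ndhD and 0.625 for rps2 to atpA, against 0.921 for atpB to atpE and 0.923 for ndhC to ndhJ. Both measures use the same WT libraries.

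The difference between WT replicates 3 and 2 had a larger median in longer genes. Among 70 tested members with a coding length, the median log2 difference from WT replicate 3 to WT replicate 2 was 0.96 in 16 genes under 200 bases, 1.33 in 36 genes from 200 to under 1000 bases and 1.41 in 18 genes of 1000 bases or more. This order did not hold for every pair of WT libraries: from WT replicate 1 to WT replicate 2 the medians were 0.62, 0.49 and 0.50 in the same classes, and from WT replicate 3 to WT replicate 1 they were 0.33, 0.91 and 0.86. The median log2 fold change between genotypes was −0.26, −0.48 and −0.53 in the same classes. Across the 70 genes the fold change and the coding length had a Pearson r of −0.39 (with log2 length) and a Spearman rho of −0.39, as a description over genes that share libraries and often transcripts.

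The size of the lean to negative estimates depended on which WT libraries entered. Without WT replicate 2 the median was −0.10, with 49 of 80 negative (50% of all genes) and 0 called, although over all genes 165 were then called (0.873%). At an unadjusted p under 0.05, 0 members were then lower, against 7.06% of all genes, and 2 were higher, against 6.64% (with all libraries, 8 were lower). Without WT replicate 3 the median was −0.64 with 78 negative (47.5% of all genes), 58 were lower at an unadjusted p under 0.05 (3.2% of all genes), and 2 were called lower, among them rpoA (−0.89, adjusted p = 0.0175), against 0.037% of all genes. Without WT replicate 1 or any single athb1-1 library the median stayed between −0.42 and −0.35 and 0 were called. With each gene taken as a share of the plastid counts, the median was −0.09, 50 of 80 were negative and 0 were called (0.0376% of all genes). That scaling moves the median of all genes to 0.16, and 14.2% of all genes are then negative.

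**Figure D4:**
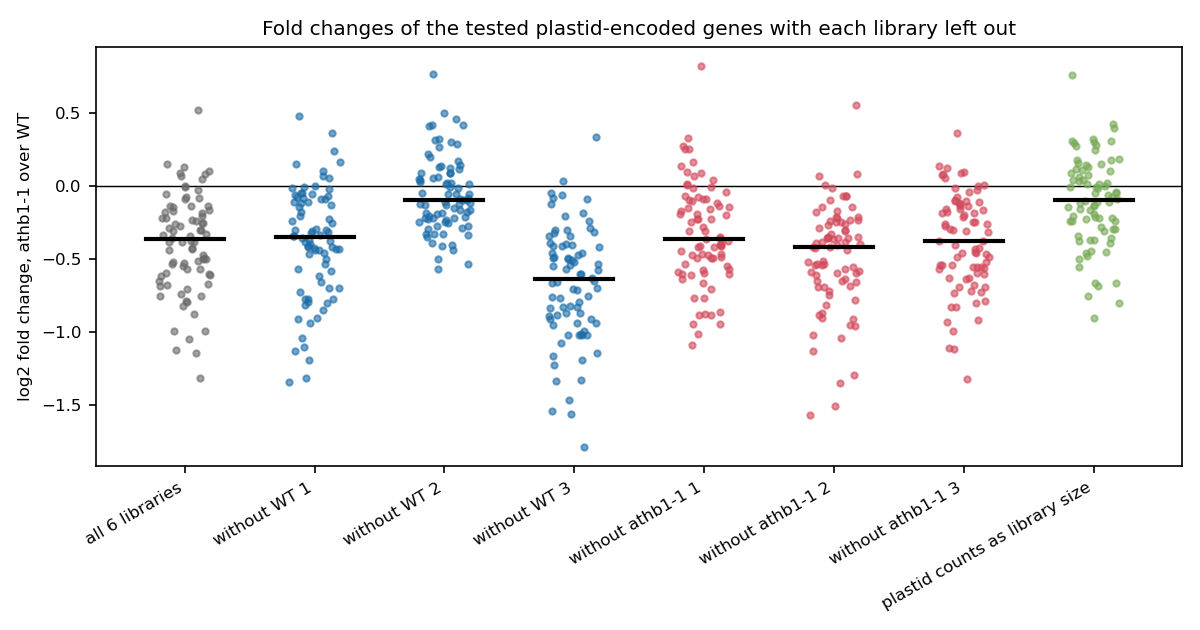
Log2 fold changes (athb1-1 over WT, y axis) of the 80 tested plastid-encoded genes, 1 point per gene, with all 6 libraries, with each library left out in turn and with plastid counts as the library size (x axis). Black bars are medians, which lie between −0.42 and −0.35 except without WT replicate 2 (−0.10), without WT replicate 3 (−0.64) and with plastid counts as the library size (−0.09).

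Levels of different genes were compared per kb of coding length for the 71 members with a single RefSeq position. The highest were atpE (322 CPM per kb), rpl16 (317), rpl32 (250) and psbM (229), followed by rps19 and rpl14 (209 each) and atpB (206). The genes of the abundant photosynthetic proteins D1 and Rubisco large subunit were lower, psbA at 59.5 and rbcL at 46.6 CPM per kb. How mRNA was selected is not known here, so the order of these counts may differ from that of the transcripts in the seedlings. The lowest were rps16 at 1.199, ccsA at 1.35 and accD, a subunit of the enzyme that starts fatty acid synthesis, at 2.12. Within the polymerase, rpoA stood at 73.9 CPM per kb while rpoB, rpoC1 and rpoC2 stood at 3.99, 3.77 and 3.02. Untranslated stretches add reads but no coding length, so short genes can be overstated on this scale.

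**Figure D5:**
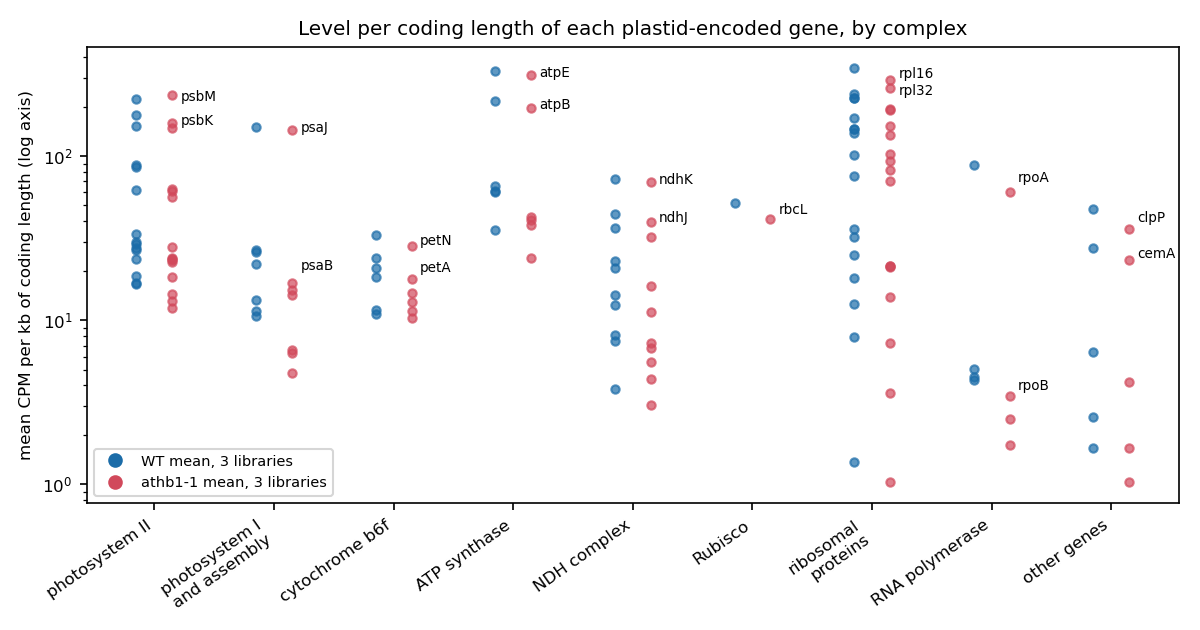
Mean CPM per kb of coding length (log axis) of 71 plastid-encoded genes by complex (x axis), with the WT mean in blue and the athb1-1 mean in red (3 libraries each); names mark the highest genes of each complex. The ATP synthase pair atpE and atpB and the ribosomal gene rpl16 are near the top, and rpoB, rpoC1 and rpoC2 lie far below rpoA.

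Some neighbouring plastid genes overlap, and a read there cannot be given to either gene. The exon bin tables merge psbD with psbC, atpB with atpE and rpl22 with rps3, and keep the shared bases as a bin of their own. The shared bin of psbD and psbC held 59, 102 and 42 counts in WT and 55, 60 and 59 in athb1-1, with WT replicate 2 again the highest. That of atpB and atpE held 100, 158 and 87 counts in WT and 114, 141 and 131 in athb1-1. That of rpl22 and rps3 held 84, 93 and 41 counts in WT and 91, 99 and 83 in athb1-1. The shared bases are printed on the strand of the genes, with the start codon of the downstream gene and the stop codon of the upstream gene in capitals (Pltd:33720-33772 plus, Pltd:52660-52663 minus and Pltd:83467-83482 minus strand), because they show how tightly each pair is joined.
psbD/psbC: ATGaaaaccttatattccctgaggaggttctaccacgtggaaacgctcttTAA
atpB/atpE: ATGA
rpl22/rps3: ATGggacaaaaaaTAA

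Use of exon bins within a gene was tested for 11 plastid loci, among them the 3 merged pairs, the split genes atpF, rpl16, petB, ndhA, clpP, ycf3 and rpoC1, and the tRNA row TRNL.1. None was called and 0 had a Simes p under 0.05 (edgeR diffSpliceDGE), against 0.00781% of 12808 loci called in all and 0.617% with an unadjusted p under 0.05. psbN lies on the opposite strand between psbT and psbH, and the strand setting of the authors' counting is unknown here, so its level (2.51, 3.73 and 1.15 CPM in WT, 2.104, 1.95 and 1.70 CPM in athb1-1) cannot be told apart from read-through of that unit.

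Nuclear genes that serve the plastid genome showed far narrower ranges than the plastid-encoded genes in the same libraries. Of 35 genes listed for plastid transcription and RNA processing, 0 were called, against 0.0537% of all genes. The list of phage-type polymerases includes RPOTM, the mitochondrial enzyme, which does not read the plastid genome. An unadjusted p under 0.05 was found for 0, against 2.34% of all genes lower and 2.9% higher. The median was −0.03 and 23 were negative, against 48.3% of all genes. By list, negative estimates numbered 10 of 10 for RNA processing and 7 of 13 for polymerase-associated proteins. They numbered 3 of 6 for sigma factors, 1 of 3 for phage-type polymerases and 2 of 3 for regulators. The median WT range of the 35 was 1.295-fold, and 1 of 35 exceeded 2-fold, against 6.68% of all genes. The 6 sigma factors summed to 454, 353 and 466 CPM in WT and 409, 396 and 460 CPM in athb1-1. WT replicate 2, the highest WT library for most plastid genes, was thus the lowest WT library for sigma factors. It was also the lowest WT library for the sum of each other list in this paragraph. Among all genes tested, it was the lowest WT library for 38.6%. The gene with the smallest p in each list is given with its log2 fold change. These genes were SIG2 (0.09), RPOTMP, a phage-type polymerase (−0.40, SE 0.23), and PTAC6, a polymerase-associated protein (−0.20). The others were GUN1, a plastid signalling protein (−0.18), and MRL1, a factor of rbcL mRNA maturation (−0.21). For RPOTMP all athb1-1 libraries lay below WT, at 1.81, 2.19 and 1.62 CPM against 2.51, 2.64 and 2.29 CPM, with an adjusted p of 0.947 (edgeR). Of all genes tested, 5.49% had all athb1-1 libraries below WT. The groups overlapped for the other genes of these lists.

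The nuclear-encoded partners in the photosynthetic complexes did not pass either. Of 37 genes 0 were called, against 0.0537% of all genes. An unadjusted p under 0.05 was found for 0, against 2.34% of all genes lower and 2.9% higher. Negative estimates numbered 23, against 48.3% of all genes. The median log2 fold change was −0.02 and the range was −0.23 to 0.13. The gene with the smallest p in each list is again given with its log2 fold change. These genes were PSAK of photosystem I (0.13), PSBY of photosystem II (−0.23) and the light-harvesting gene LHCB1.3 (−0.18). The others were PETC of the cytochrome b6f complex (−0.06) and RBCS1B, a small subunit of Rubisco (−0.20). All 4 RBCS genes were negative; their sum was 26903, 32182 and 24797 CPM in WT and 23301, 27136 and 26104 CPM in athb1-1. None of the 37 had a WT range over 2-fold, against 6.68% of all genes, and the widest was 1.36-fold. For PSAK and PSAH2 of photosystem I all athb1-1 libraries lay above WT, against 5.86% of all genes. The groups overlapped for the other genes of the 37.

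The authors' deposited table gave the same direction for most members. After turning its sign, 80 of 95 plastid rows were lower and 15 higher in athb1-1, where 48.5% of all 22676 genes in the authors' deposited table were lower. At a p under 0.05 in the authors' deposited table, 27 plastid rows were lower, against 2.14% of all its genes, and 0 were higher, against 2.65%. The smallest FDR of a plastid row in the authors' deposited table was 0.240.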

How the data were processed

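The deposited gene and exon-bin tables hold raw read counts, as whole numbers per library. Per the submitters' processing notes, TopHat2 2.0.8, Bowtie2 2.1.0 and the TAIR10 build were used. The sources used here name no counting program or strand setting. The authors' deposited table supplied gene symbols, log2 fold changes (sign turned here), p-values and adjusted p-values; its 6 per-library columns were not used. Positions and sequences are those of RefSeq for TAIR10.1.

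All genes were tested on counts with edgeR 4.0.16 (R 4.3.3; TMM, filterByExpr, robust quasi-likelihood, Benjamini-Hochberg, adjusted p under 0.05), with DESeq2 1.42.0 as an alternative. CPM were TMM scaled, and SE is the log2 fold change over the square root of F. The fits were tested on simulated data in which all genes had the same spread between libraries. That check does not cover the wider WT spread of the plastid-encoded genes. p-values weigh the difference between genotypes against the spread between 3 libraries per genotype.

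The members, lists and transcription units were chosen with earlier results of these data known. Genes were named by a rule: per complex the highest mean CPM and the smallest p, the 10 highest mean CPM, the 5 smallest p, positive estimates, and the smallest p of each nuclear list. Other names were chosen after their values were seen. Results for 1 member are not reported here.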

Additional observations from a re-analysis of the deposited data

How the results depend on the processing

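No plastid-encoded gene was called with RLE factors, DESeq2, either other filter, nuclear-only scaling, plastid counts as library size or exon bins, and 0 to 2 were called with each library left out (2 without WT replicate 3, among them rpoA). Negative estimates numbered 49 to 78 over those omissions. With the replicate block 0 were called (0.0644% of all genes) and 69 of 80 were negative (47.3% of all genes). At an unadjusted p under 0.05 (edgeR), 19 were then lower, against 2.63% of all genes, and 0 higher, against 3.33%. Without the block 8 were lower. The smallest adjusted p of a member was 0.359 with the block and 0.939 without it. Same-numbered libraries correlated at −0.07, 0.22 and 0.12 in their deviations, and not every library correlated best with its own number. Whether the numbers pair the libraries cannot be told from 3 libraries per genotype. All athb1-1 libraries lay within the WT range for 55 genes, for 21 with plastid counts as library size, and for 3 to 67 with a library left out (3 without WT replicate 3); this count and that of negative estimates were chosen after seeing the data. The genotype ratio of each summed complex level and of the plastid share moved by less than 1 SD of that ratio under every alternative. That SD includes the spread of the WT libraries that were left out in turn. The check therefore cannot show that these ratios are stable.

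Of 32 named genes, 17 kept direction and side of the threshold under all alternatives run, rpoA was called without WT replicate 3, and 14 changed sign, none of them called under any setting; the cause was not tested. With plastid counts as library size ndhK stood at 0.19, atpE at 0.18, atpB at 0.10, rps3 at 0.12, rpl14 at 0.036 and rpl16 at 0.023, where the median of all genes was 0.16. TRNH stood at −0.0010 with RLE factors, −0.012 with DESeq2 and −0.0018 with exon bins. With a library left out the ranges were −0.32 to 0.32 for TRNH, −0.064 to 0.31 for psbI, −0.13 to 0.27 for TRNS.1, −0.087 to 0.50 for psbM, −0.20 to 0.42 for rps14, −0.21 to 0.42 for TRNL.1, −0.30 to 0.15 for ndhK, −0.32 to 0.17 for atpE, −0.34 to 0.045 for atpB, −0.54 to 0.00067 for rpl16, −0.47 to 0.054 for rps3, −0.065 to 0.28 for rpl32 and −0.12 to 0.36 for ycf1.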
